A study of Rattus norvegicus with 24 samples.

Results

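Ern1, Xbp1, Eif2ak3, Atf4, Ddit3, Trib3, Atf6, Herpud1 and Sel1l encode sensors and effectors of the unfolded protein response, the answer of a cell to misfolded protein in its endoplasmic reticulum (ER). They were taken by gene symbol from the whole-number counts of both tables, where all 9 were found among the 13841 genes counted in both sexes. Hspa5, the ER chaperone BiP, served as the readout they were set against. The tissue was whole hypothalamus of Sprague Dawley rat pups at postnatal day 10 (PN10). The groups were 6 female and 6 male pups of dams fed a high fat diet (HFD-O, 43% of digestible energy as lipid) and 6 female and 6 male pups of dams fed a control diet (CON-O, 12%). Both kinds of dam ate their diet from before mating through lactation, and pups stayed with their own dam, so exposure before and after birth cannot be told apart. For each diet the study had fewer litters than the 12 pups sequenced, so some CON-O pups and some HFD-O pups shared a litter. The labels do not say which, and the p-values below measure the spread between these libraries and take each as independent unless stated.

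The response has 3 sensors in the ER membrane, each held inactive by BiP in unstressed cells. IRE1 (gene Ern1) is a kinase and RNase that cuts Xbp1 mRNA, which is then rejoined to encode an active transcription factor. PERK (gene Eif2ak3) phosphorylates eIF2α, which lowers translation in general but favours translation of ATF4, and ATF4 in turn drives Ddit3 (CHOP) and Trib3. ATF6 moves to the Golgi, where it is cut to release a transcription factor for ER chaperones, Herpud1 and Xbp1. Herpud1 and Sel1l belong to ER-associated degradation (ERAD), which returns misfolded protein to the cytosol. Much of this is set by splicing, phosphorylation, translation and cleavage, so the gene counts measured here give the amount of each mRNA and not the activity of its branch.

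The ER stress element (ERSE) is the DNA element through which ATF6 is best known to act on ER chaperone genes. RefSeq promoters of 300 bases (250 before to 50 after the start, build GRCr8; the counts were made on rn6) were found for 8 of the 10 genes, with none used for Atf6 and Ern1. Both strands were searched for letters alone. ERSE (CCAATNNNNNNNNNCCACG) stood in 22 of 33469 promoters (0.0657%), among them those of Hspa5 and Xbp1. The shorter ERSE-II (ATTGGNCCACG) stood in 17 promoters (0.0508%), among them that of Herpud1. The windows below are the 130 bases before the start of these 3 genes, shown because the level of Xbp1 had the highest correlation with that of Hspa5 among the 9 genes over the 24 libraries. They lie at chr3:38452886-38453015 (plus strand) for Hspa5, chr14:84604493-84604622 (plus strand) for Xbp1 and chr19:10614708-10614837 (minus strand) for Herpud1. Capitals mark the fixed letters of ERSE in Hspa5 and Xbp1 and of ERSE-II in Herpud1.
Hspa5: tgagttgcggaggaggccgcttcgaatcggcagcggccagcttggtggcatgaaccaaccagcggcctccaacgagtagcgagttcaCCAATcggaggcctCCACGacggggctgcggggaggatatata
Xbp1: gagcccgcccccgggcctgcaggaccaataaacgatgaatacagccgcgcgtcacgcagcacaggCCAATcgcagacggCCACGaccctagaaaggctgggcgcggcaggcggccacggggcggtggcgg
Herpud1: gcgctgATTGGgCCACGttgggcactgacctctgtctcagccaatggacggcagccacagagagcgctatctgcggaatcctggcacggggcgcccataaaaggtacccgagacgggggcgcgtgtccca

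The ERSE letters ran from base -43 to base -25 before the start in Hspa5 and from base -65 to base -47 in Xbp1, both on the strand of the gene. The CCAAT and CCACG ends of ERSE are short enough to be common alone, in 37.5% and 31.6% of promoters. ERSE-II in Herpud1 ran from base -124 to base -114. An amino acid response element (CARE, TGATGNAA), bound by ATF4 and its partners, was found in the promoters of Trib3 and Herpud1 and in 3.98% of all promoters. The XBP1 element UPRE (TGACGTGG) was in none of the 8 promoters and in 0.595% of all promoters. A match of letters is no measure of binding.

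Library totals ran from 6116897 to 7974980 counts. Pairs of libraries within a group differed by more than sampling noise (chi-square per degree of freedom 2.26 to 12.8 over 60 pairs), so none was a repeat deposit. Of 11 hypothalamic markers, 10 were in the tables and had counts in all 24 libraries, for example Nkx2-1 at a mean of 69.7 CPM (counts scaled to a common library total) and Oxt at 119 CPM. Markers of several cell types also went with diet. Over both sexes 16 of 16 leptomeningeal markers had higher estimates in HFD-O (median log2 fold change 1.00, smallest adjusted p = 0.071 by edgeR), with summed levels of 299 to 1004 CPM in female HFD-O, 178 to 537 CPM in female CON-O, 288 to 1574 CPM in male HFD-O and 171 to 1055 CPM in male CON-O. Likewise 7 of 7 tested erythroid markers had higher estimates in HFD-O (median 1.03, smallest adjusted p = 0.116). So did 8 of 8 oligodendrocyte, 5 of 5 astrocyte, 5 of 5 endothelial, 5 of 6 microglial and 5 of 6 midbrain dopamine markers, with medians from 0.12 to 0.66, and 1 of 8 neuronal markers (median -0.086). None of these was called. In whole tissue, fewer cells of a type and less RNA per cell cannot be told apart.

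The 9 genes spanned a wide range of counts. Means over 24 libraries were 287 CPM for Atf4, 144 CPM for Sel1l, 113 CPM for Xbp1, 66.9 CPM for Herpud1, 37.2 CPM for Ddit3, 33.1 CPM for Eif2ak3, 29.8 CPM for Atf6, 6.45 CPM for Ern1 and 0.429 CPM for Trib3. CPM is not corrected for transcript length, so no order between genes is read from it. Spread between libraries was least for Atf4 (coefficient of variation 6.32%), Herpud1 (6.44%) and Xbp1 (7.14%), and greater for Ddit3 (12.4%), Atf6 (15.4%) and Ern1 (25.4%). Ern1 rested on 24 to 73 counts per library and Trib3 on 0 to 6, whereas Xbp1 had 685 to 943, so counting error was larger for Ern1 and Trib3 than for Xbp1.

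**Figure D1:**
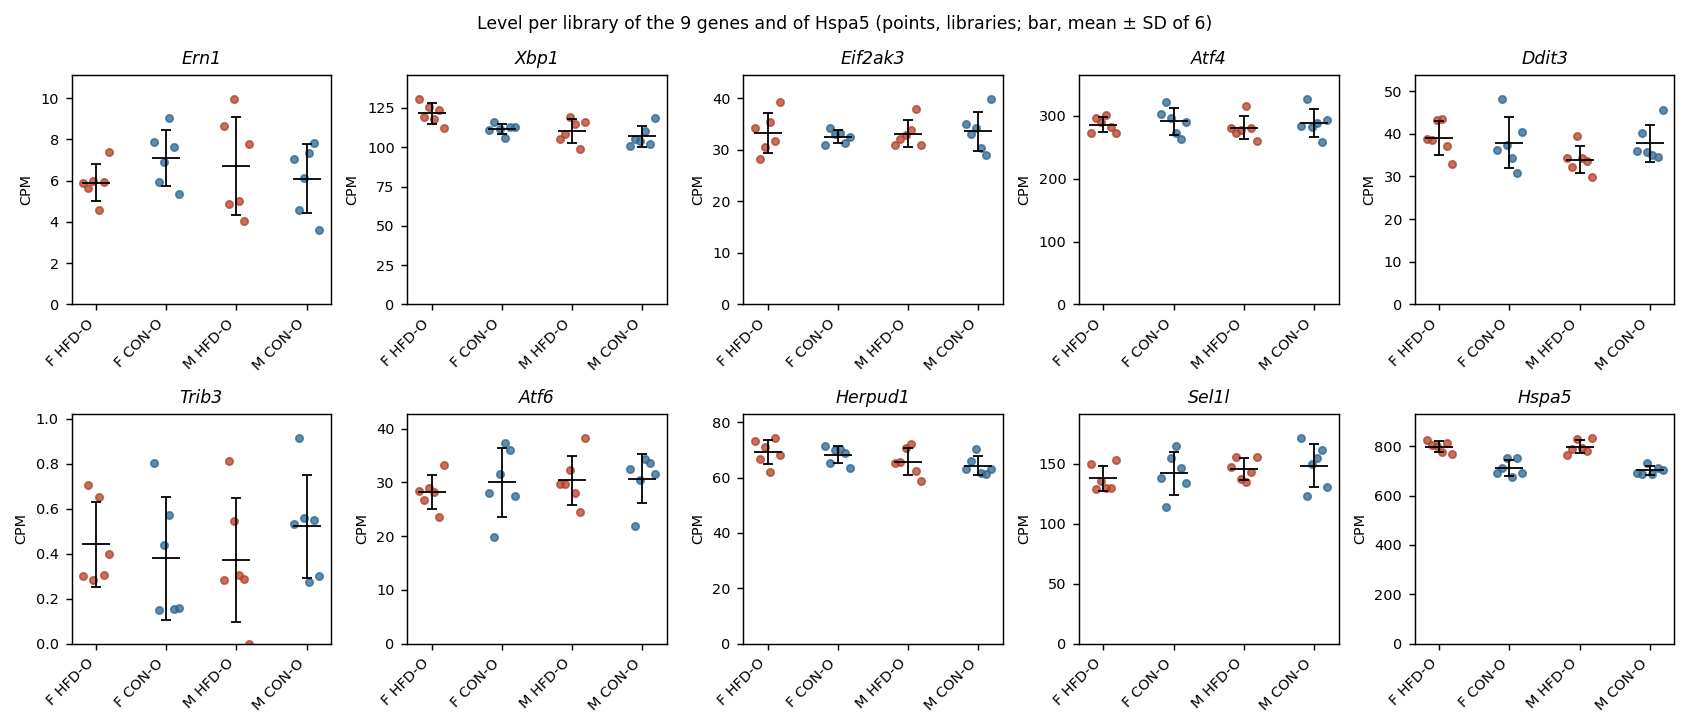
Level of each gene and of Hspa5 in each library, in CPM (vertical axis from 0), by group: female HFD-O, female CON-O, male HFD-O and male CON-O. Points are libraries, and the bar is the mean ± SD of 6. Hspa5 groups do not overlap between diets in either sex, and those of the 9 other genes do. The share of all genes without overlap was not counted.

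Maternal diet was compared first for Hspa5. Hspa5 had 770, 803 and 824 CPM (lowest, median and highest) in female HFD-O, against 675, 703 and 752 CPM in female CON-O. In males it had 765, 793 and 832 CPM in HFD-O, against 688, 696 and 732 CPM in CON-O. All 6 HFD-O libraries of each sex were above all 6 of CON-O. How many of all genes separate wholly or nearly in this way was not counted, here or for the genes below. Hspa5 rose in HFD-O over both sexes by 0.18 ± 0.024 on the log2 scale (SE; adjusted p = 0.000822 by edgeR's quasi-likelihood test over 11630 genes), the smallest p of all genes tested. Within a sex the estimates were 0.17 (adjusted p = 0.235) in females and 0.19 (adjusted p = 0.826) in males, and exact permutation of the libraries gave p = 0.00216 in each sex, the smallest that 6 against 6 libraries allow.

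None of the 8 unfolded protein response genes tested passed the threshold for diet, in females, in males or over both sexes (adjusted p from 0.295 to 0.983 over both sexes, edgeR's quasi-likelihood test with Benjamini-Hochberg adjustment over all genes). The background was low. Genes called were 0% of 11388 in females, 0% of 11455 in males and 0.163% of 11630 over both sexes (19 genes, 17 of them higher in HFD-O). At an unadjusted p under 0.05 were 806 genes in females and 566 in males. Of the 8 genes, Xbp1 alone was at an unadjusted p under 0.05, in females and over both sexes, where 7.08% and 12.7% of all genes were. None of the 8 was called by the likelihood ratio test, DESeq2 or limma-voom either, tools which called 50, 20 and 0 genes in females, 0, 1 and 0 in males and 93, 93 and 18 over both sexes.

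In the IRE1 branch, Xbp1 had 112, 121 and 131 CPM in female HFD-O, against 106, 112 and 116 CPM in female CON-O. The ranges overlapped, with 5 of 6 female HFD-O libraries above the highest CON-O library. Xbp1 in males had 99.1, 112 and 119 CPM in HFD-O, against 101, 105 and 119 CPM in CON-O, with ranges that nearly coincided. The log2 difference was 0.12 ± 0.045 in females (adjusted p = 0.535; exact permutation p = 0.00866), 0.049 ± 0.056 in males (adjusted p = 0.968; exact permutation p = 0.387) and 0.086 ± 0.035 over both sexes (adjusted p = 0.295, edgeR). The estimate was positive in all 33 other settings over both sexes, from 0.074 to 0.10, with adjusted p from 0.143 to 0.659. These settings refit the same counts, 24 of them leaving out 1 library, so their common sign is no independent support. With the leptomeningeal score in the fit it was 0.084 (adjusted p = 0.317, edgeR) over both sexes and 0.086 (adjusted p = 0.865) in females. The difference between the sexes in Xbp1 did not pass the test (male minus female -0.073 ± 0.069, adjusted p = 1 by edgeR).

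Ern1, the kinase upstream of Xbp1, had few counts and no difference that passed the test. Its libraries had 4.56, 5.90 and 7.41 CPM in female HFD-O, against 5.33, 7.26 and 9.04 CPM in female CON-O, with 1 HFD-O library below all of CON-O. The log2 estimate was -0.26 ± 0.15 (adjusted p = 0.752, edgeR), and exact permutation gave p = 0.113, which ran from 0.0303 without female CON-O library 12 to 0.219 without female CON-O library 8. In males Ern1 had 4.05, 6.40 and 9.95 CPM in HFD-O, against 3.62, 6.59 and 7.84 CPM in CON-O, and the estimate was 0.14 ± 0.23. Over both sexes it was -0.064 ± 0.14 (adjusted p = 0.909 by edgeR), and the difference between the sexes did not pass either (male minus female 0.40 ± 0.29, adjusted p = 1). Background for that comparison was 0% of 11630 genes called by edgeR, DESeq2 or limma-voom, with 178 genes at an unadjusted p under 0.05 by edgeR, 132 by DESeq2 and 185 by limma-voom. The Ern1 level also went with the leptomeningeal score across libraries (r = 0.53 over 24 libraries centred within group), and its male estimate was -0.10 with that score in the fit. The part of that score in the Ern1 values was not tested further.

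In the PERK branch, Eif2ak3 encodes the sensor. It had 28.1, 33.0 and 39.2 CPM in female HFD-O, against 30.9, 32.7 and 34.1 CPM in female CON-O, so that HFD-O libraries lay on both sides of the CON-O range, 3 above it and 2 below. In males it had 30.9, 32.5 and 37.9 CPM in HFD-O, against 29, 33.6 and 39.8 CPM in CON-O. The difference over both sexes was 0.0041 ± 0.055 on the log2 scale (adjusted p = 0.983, edgeR), the smallest of the 8.

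Atf4, the transcription factor made when eIF2α is phosphorylated, had 273, 286 and 301 CPM in female HFD-O, against 262, 293 and 322 CPM in female CON-O. In males it had 259, 279 and 315 CPM in HFD-O, against 258, 286 and 326 CPM in CON-O. HFD-O libraries lay inside the CON-O range in both sexes. The estimate over both sexes was -0.032 ± 0.038 (adjusted p = 0.789, edgeR), and it was 0.022 with the leptomeningeal score in the fit.

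Ddit3 encodes CHOP, a factor that favours cell death when ER stress lasts. In males Ddit3 had 29.9, 33.9 and 39.4 CPM in HFD-O, against 34.5, 35.7 and 45.7 CPM in CON-O, and 5 of 6 HFD-O libraries lay below the lowest CON-O library. The male estimate was -0.15 ± 0.082 (adjusted p = 0.956, edgeR), with an exact permutation p = 0.0974, which ran from 0.00866 without male HFD-O library 17 to 0.195 without male CON-O library 11. Without library 11 the estimate was -0.093. In females Ddit3 had 32.8, 38.6 and 43.5 CPM in HFD-O, against 30.7, 36.8 and 48.1 CPM in CON-O, with an estimate of 0.042. Male minus female was -0.19 ± 0.13 (adjusted p = 1, edgeR).

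Trib3, a pseudokinase induced by ATF4 and CHOP, was barely detected. Its 24 libraries held 71 counts together, and it fell below the count filter. Trib3 had 0.284, 0.350 and 0.707 CPM in female HFD-O, against 0.152, 0.298 and 0.805 CPM in female CON-O. In males it had 0, 0.297 and 0.810 CPM in HFD-O, against 0.272, 0.541 and 0.912 CPM in CON-O. Fitted with no filter, Trib3 differed by -0.14 ± 0.35 over both sexes (adjusted p = 0.926, edgeR), an interval too wide to exclude a change of the size seen in Hspa5 in either direction.

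Atf6, the third sensor, had 23.6, 28.3 and 33.2 CPM in female HFD-O, against 19.9, 29.8 and 37.3 CPM in female CON-O. In males it had 24.6, 29.7 and 38.2 CPM in HFD-O, against 21.9, 32 and 34.3 CPM in CON-O. The spread within a group was wider than any shift between diets, and the estimate over both sexes was -0.052 ± 0.089 (adjusted p = 0.872, edgeR). Without male CON-O library 3, the lowest of its group, the male estimate was -0.091 in place of -0.012.

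Both ERAD genes had estimates near 0. Herpud1, an ER membrane protein that gathers ERAD components, had 62.2, 69.7 and 74.2 CPM in female HFD-O, against 63.5, 69.5 and 71.5 CPM in female CON-O, and 58.9, 65.4 and 72.2 CPM in male HFD-O, against 61.4, 63.0 and 70.3 CPM in male CON-O. Its estimate over both sexes was 0.027 ± 0.038 (adjusted p = 0.834, edgeR). Sel1l, the partner of the ubiquitin ligase HRD1, had 129, 133 and 153 CPM in female HFD-O, against 114, 143 and 165 CPM in female CON-O. In males Sel1l had 135, 146 and 156 CPM in HFD-O, against 123, 153 and 171 CPM in CON-O. HFD-O medians of Sel1l were the lower ones in both sexes, by less than the spread of either group (-0.036 ± 0.056 over both sexes, adjusted p = 0.851, edgeR).

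**Figure D2:**
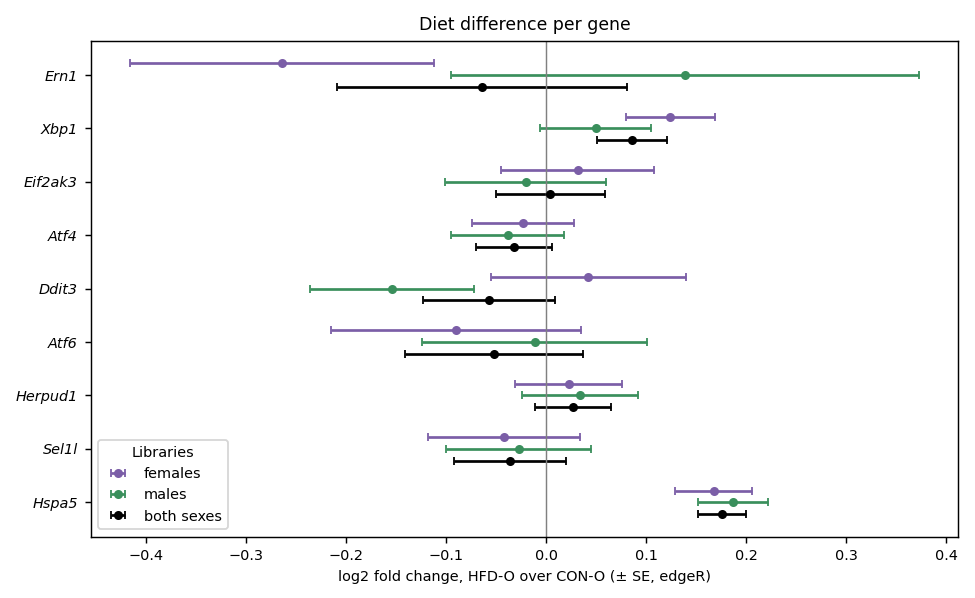
Log2 fold change of HFD-O over CON-O (horizontal axis, edgeR estimate ± SE) for the 8 tested genes and Hspa5, in females, males and both sexes; 0 is no difference. Hspa5 lies at 0.17 to 0.19 in all 3 fits, Xbp1 at 0.049 to 0.12, and the other 7 genes between -0.26 and 0.14, both of these being Ern1.

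Whether each gene followed Hspa5 from pup to pup was asked next, with log2(CPM + 1) centred within the 4 groups so that neither sex nor diet enters. Xbp1 was the 1 gene of the 9 with a permutation p under 0.05 (r = 0.47, p = 0.0170; Spearman rho = 0.50, p = 0.0142; 9 relations computed over 24 libraries). It was 0.58 (permutation p = 0.0238) over the 12 females and 0.42 (permutation p = 0.201) over the 12 males. Leaving out female CON-O libraries 6 and 10, the farthest from the median of Hspa5, gave r = 0.58. Of 11629 genes, 1.59% had a higher r with Hspa5 than Xbp1. Fitted across all genes with edgeR, the Xbp1 slope was 0.79 ± 0.37 log2 units per log2 unit of Hspa5 (adjusted p = 0.999). Both genes also went with the scores of other cells over these libraries. For the astrocyte score r was 0.36 with Xbp1 and 0.44 with Hspa5, and for the endothelial score 0.42 and 0.36. With the astrocyte score in the fit the Xbp1 slope was 0.65 ± 0.41 (adjusted p = 1, edgeR), and with the endothelial score it was 0.62 ± 0.39 (adjusted p = 0.989), both added after the data were seen.

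No gene passed that slope test across all genes (0% called with a positive slope and 0% with a negative one), with 492 genes at an unadjusted p under 0.05 by edgeR's quasi-likelihood test, and limma-voom also called 0, with 513 at an unadjusted p under 0.05. In a check added after the data were seen, the libraries were averaged in 12 pairs of a male library and the female library with the next number. Over these pair means r of Xbp1 with Hspa5 was -0.013 (permutation p = 0.974), so the relation seen over 24 libraries was not seen between pairs.

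The other genes gave r with Hspa5 of 0.25 for Herpud1, 0.15 for Atf6, 0.10 for Ern1, 0.020 for Sel1l, -0.083 for Ddit3, -0.20 for Eif2ak3, -0.26 for Atf4 and -0.28 for Trib3, with permutation p from 0.247 to 0.940. By sign alone, the positive values were those of the ATF6 and XBP1 targets and of the sensors Atf6 and Ern1, and the PERK branch genes were below 0. None of these values had a permutation p under 0.05, and a difference between branches was not tested. The signs of Atf6, Ern1 and Sel1l turned in females, and those of Atf6, Sel1l and Ddit3 turned without libraries 6 and 10. The genes most like Hspa5 over the 24 libraries, among 8919 with a mean of at least 10 CPM, were Hyou1 (r = 0.76), Hsp90b1 (0.75), Mrps10 (0.72), Rbm4b (0.71), Ltbp3 (0.71), Serpinh1 (0.71), Glb1 (0.70), Pdia4 (0.69), Hdhd2 (0.68) and Pdia6 (0.68). Hyou1, Hsp90b1, Serpinh1, Pdia4 and Pdia6 among them are ER chaperones or folding enzymes, and none of the 9 genes was in this group. The genes most like Xbp1 were Tlcd1 (r = 0.69), Fnta (0.68) and Gar1 (0.67).

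**Figure D3:**
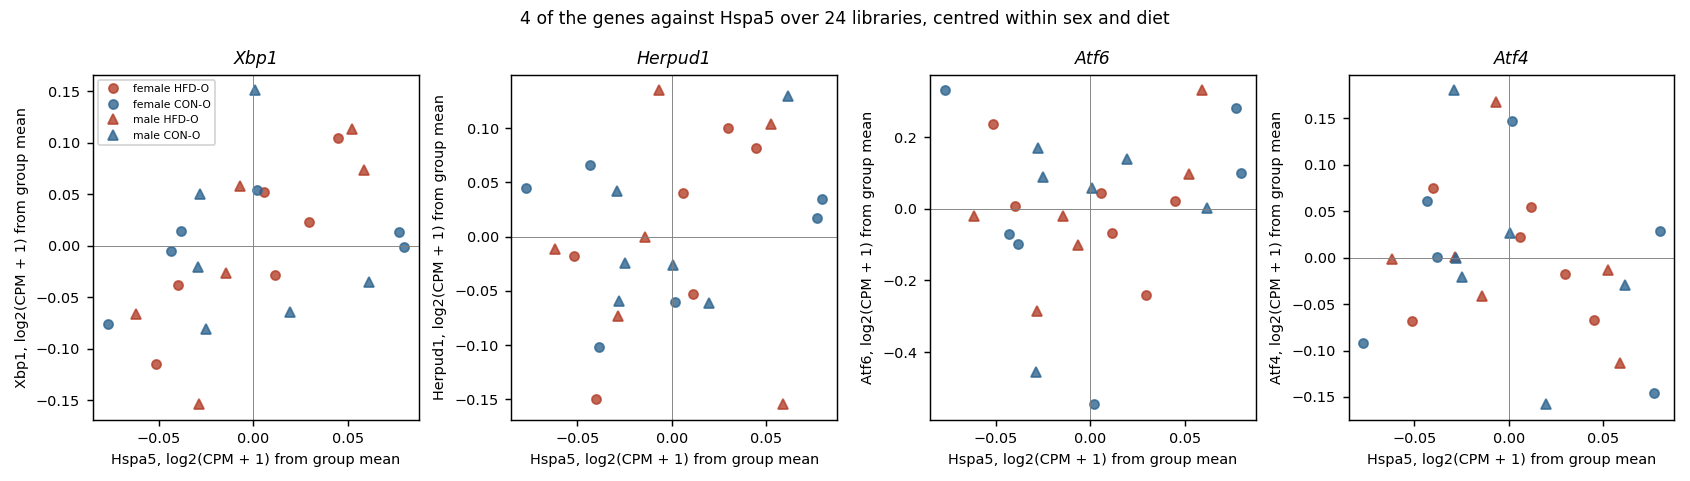
Xbp1, Herpud1, Atf6 and Atf4 (vertical axes) against Hspa5 (horizontal axes) over 24 libraries, each as log2(CPM + 1) minus the mean of its group; circles are females, triangles males, and colours the diets. Values of r with Hspa5 are 0.47 for Xbp1, 0.25 for Herpud1, 0.15 for Atf6 and -0.26 for Atf4. The slope of Xbp1 on Hspa5 had an adjusted p = 0.999 by edgeR. Over means of consecutive library pairs, r of Xbp1 with Hspa5 was -0.013.

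Some of the 9 genes went with each other across libraries. Of the 36 pairs among the 9 genes, 12 had a permutation p under 0.05, 5 with positive r and 7 with negative r. The same share over all pairs of genes was not counted. Large values of r were common over all genes for Atf6, Sel1l, Ern1, Atf4 and Ddit3, as given below with gene length. Atf6, Sel1l and Ern1 went together, with r = 0.78 between Atf6 and Sel1l (Spearman rho = 0.71, permutation p = 0.0001; 0.89 in females and 0.64 in males), 0.57 between Atf6 and Ern1 and 0.54 between Ern1 and Sel1l. Atf4 and Ddit3, which are consecutive steps of the PERK branch, also went together (r = 0.66, rho = 0.74, permutation p = 0.00167; 0.84 in females and 0.49 in males). Between these groups the sign was negative, with r = -0.76 between Atf4 and Sel1l, -0.74 between Atf4 and Atf6, -0.73 between Ddit3 and Sel1l and -0.58 between Atf6 and Ddit3. Xbp1 and Ddit3 gave r = 0.46 (permutation p = 0.0192), and Eif2ak3 and Ern1 gave -0.43, which was 0.11 in females and -0.71 in males. Without the libraries farthest from the median, r was 0.56 for Atf6 with Sel1l, 0.76 for Atf4 with Ddit3 and -0.12 for Eif2ak3 with Ern1.

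**Figure D4:**
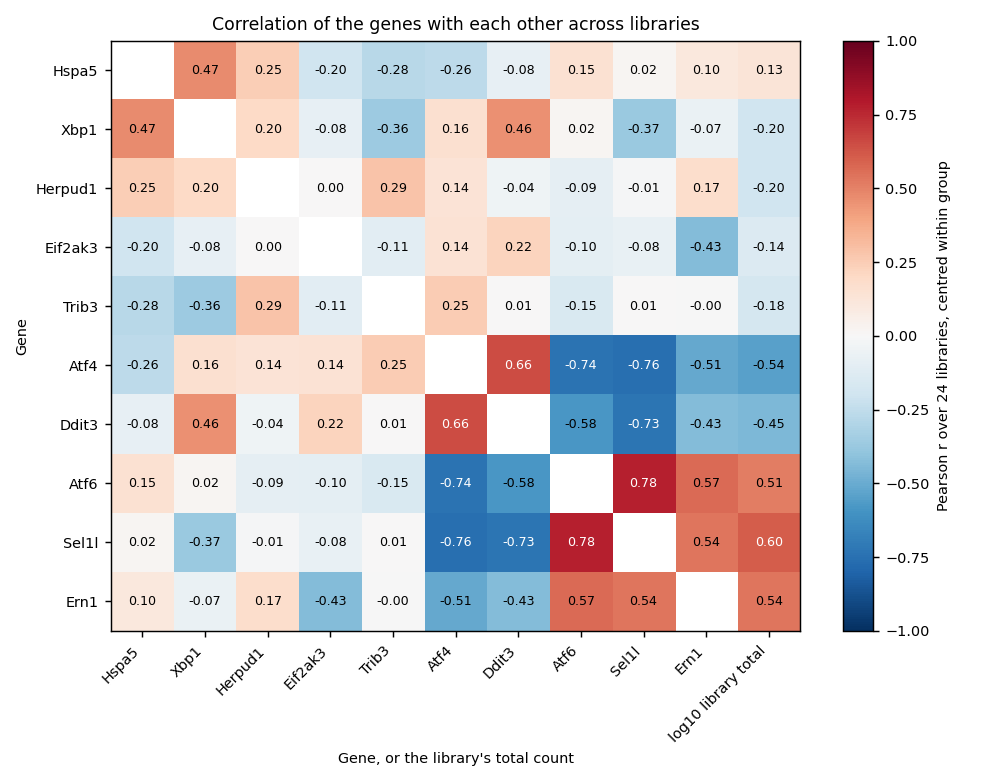
Pearson r between the 9 genes, Hspa5 and the log10 library total over 24 libraries centred within group; red is positive and blue negative. Atf6, Sel1l and Ern1 form a positive block (0.54 to 0.78), Atf4 and Ddit3 another (0.66), and the cells between them are negative (-0.43 to -0.76).

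Properties of the libraries went with the same genes. Across 24 libraries the log10 library total had r = 0.60 with Sel1l, 0.54 with Ern1 and 0.51 with Atf6, against -0.54 with Atf4 and -0.45 with Ddit3, and 0.13 with Hspa5 and -0.20 with Xbp1. Numbering also went with them. Between a male library and the female library with the next number, r over 12 pairs was 0.88 for Atf6, 0.75 for Atf4, 0.73 for Ddit3, 0.67 for Ern1, 0.61 for Sel1l and 0.67 for the library total itself. It was -0.30 for Xbp1, -0.30 for Herpud1, -0.15 for Eif2ak3 and 0.15 for Hspa5. Without libraries 3 and 4, the values were 0.74 for Atf6, 0.61 for Atf4, 0.79 for Ddit3 and 0.30 for Sel1l. The labels do not say what consecutive numbers share, whether litter, dissection or preparation, and these cannot be told apart. The permutation p-values above take libraries as independent and may be too small for genes that deviate together in consecutive libraries. Over pair means the values were as large, at 0.85 for Atf6 with Sel1l, 0.78 for Atf4 with Ddit3 and -0.79 for Atf4 with Sel1l.

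**Figure D5:**
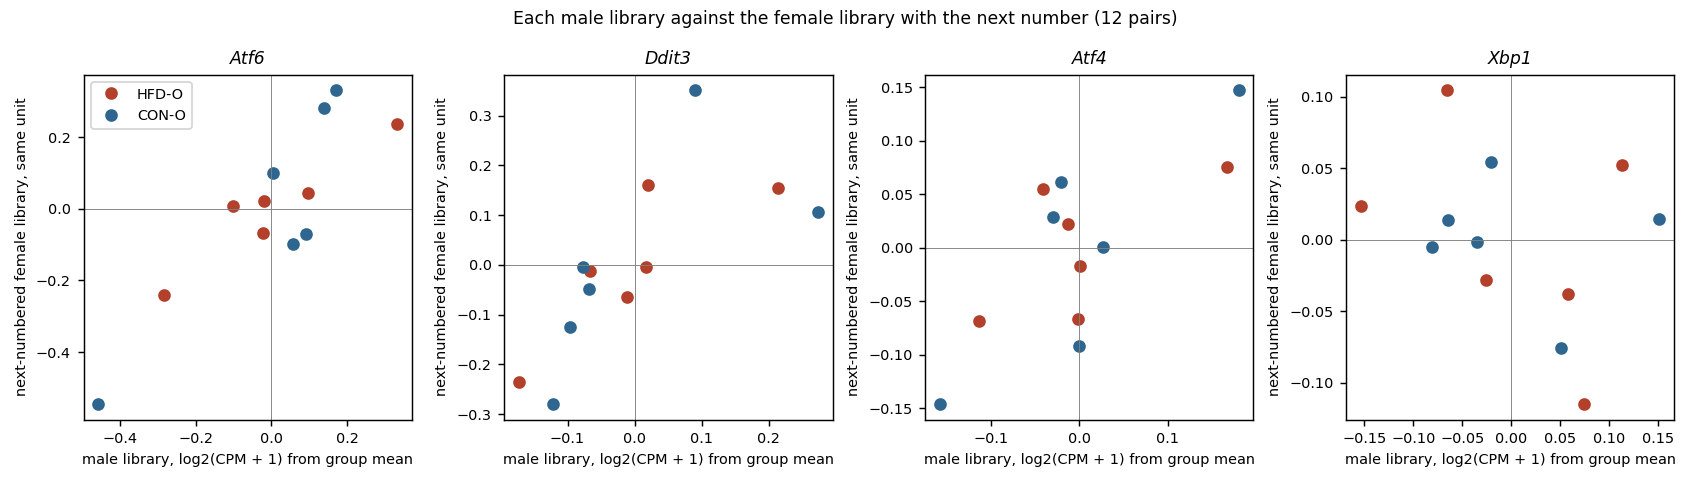
Atf6, Ddit3, Atf4 and Xbp1 in each male library (horizontal axis) and the female library with the next number (vertical axis), as log2(CPM + 1) minus the group mean; 12 pairs, coloured by diet. Atf6 (r = 0.88), Atf4 (0.75) and Ddit3 (0.73) deviate together, and Xbp1 (-0.30) does not.

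Gene length also went with these genes. By the span of the gene in RefSeq (GRCr8, known for 98.7% of tested genes), Atf6 covers 179648 bases, Ern1 94314, Eif2ak3 61434 and Sel1l 44274, whereas Xbp1 covers 5085, Ddit3 4823, Hspa5 4460 and Atf4 2059. Across all genes, r with Sel1l was higher for longer genes (Spearman rho of r with span 0.49 over 11482 genes), as was r with Atf6 (0.46) and Ern1 (0.41). It was lower for longer genes in the case of Atf4 (-0.46) and Ddit3 (-0.45). The value was -0.036 for Hspa5, -0.25 for Xbp1 and -0.088 for Eif2ak3, which is itself a long gene. Genes are not independent replicates, and these values describe the libraries. The neighbours in expression were of the same kind: most like Atf6 were Tnr (r = 0.92, span 421034 bases), Lrba (0.92, 581207) and Hipk2 (0.92, 187047), and most like Sel1l were Cacna1e, Tulp4 and Dcc (0.93 each). Most like Atf4 were Arl8a (0.88), Rpl35 (0.87) and Qdpr (0.85), and most like Ddit3 was Fth1 (0.83). A middle 90% of genes had r with Atf6 between -0.69 and 0.72, against -0.34 and 0.37 for r with Hspa5. Those limits were -0.69 and 0.74 for Sel1l, -0.66 and 0.64 for Atf4, -0.63 and 0.57 for Ddit3 and -0.61 and 0.61 for Ern1. Large values of r were thus common for Atf6, Sel1l, Atf4, Ddit3 and Ern1 and rare for Hspa5. Atf6 with Ern1, Ern1 with Sel1l and Atf6 with Ddit3 lay inside the limits of both genes. Over 24 libraries, Atf6 with Sel1l, Atf4 with Ddit3, Atf4 with Sel1l, Atf4 with Atf6 and Ddit3 with Sel1l lay outside them. Without libraries 3 and 4, r of these pairs was, in that order, 0.56, 0.59, -0.60, -0.56 and -0.65. Each of these values was inside the 24-library limits of at least 1 gene of its pair. Limits without libraries 3 and 4 were not computed. The part of library total, pairing or gene length in the covariation of these genes was not tested.

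The wider pathway was read from lists of genes, over both sexes, beside a median log2 fold change of -0.002 over all 11630 genes, 49.0% of which had higher estimates in HFD-O. The lists share genes, and Hspa5 is in those of ATF6 targets and ER chaperones. In the IRE1 list 7 of 11 tested genes had higher estimates in HFD-O and none was called (median 0.015). Xbp1 and Ddrgk1, which stabilizes IRE1, stood first there (Ddrgk1 0.11, adjusted p = 0.366, edgeR). Among genes known as XBP1 targets, 26 of 33 had higher estimates, 1 was called and the median was 0.038. The called gene was Pdia6, a protein disulfide isomerase, which rose by 0.16 ± 0.030 (adjusted p = 0.031). Sec62, part of the ER translocation channel, had 0.13 (adjusted p = 0.116).

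In the PERK list 9 of 16 genes had higher estimates, none was called and the median was 0.007. Dnajc3, an ER co-chaperone that inhibits PERK, had 0.18 (adjusted p = 0.246, edgeR) and Eif2b5, a subunit of the exchange factor that phosphorylated eIF2α blocks, had 0.049 (adjusted p = 0.509). Of 33 tested targets of ATF4, 17 had higher estimates, none was called and the median was 0.023. Nupr1, a stress-induced nuclear protein, had 1.27 at a mean of 3.33 CPM (adjusted p = 0.246) and -0.089 with the leptomeningeal score in the fit, and Slc7a11, the cystine transporter, had 0.32 (adjusted p = 0.283). Of 6 tested death effectors downstream of CHOP, 3 had higher estimates and none was called (median -0.002).

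In the ATF6 list, with its membrane-bound relatives, 4 of 8 genes had higher estimates and none was called (median 0.009), with Creb3 at 0.093 (adjusted p = 0.214, edgeR) and Creb3l1 at 0.25 (adjusted p = 0.288). The targets of ATF6 had the highest median of the unfolded protein response lists, 0.12, with 13 of 14 higher and 4 called. Those called were Hspa5, Pdia4, Pdia6 and Hsp90b1. Pdia4, another disulfide isomerase, rose by 0.29 ± 0.044 (adjusted p = 0.00316), and Hsp90b1, the ER paralog of HSP90, rose by 0.13 ± 0.027 (adjusted p = 0.0376). Xbp1 and Herpud1 are in this list with higher estimates that were not called, and Sel1l was the 1 gene with a lower one. In the list of ER chaperones and folding enzymes 20 of 23 had higher estimates, 5 were called and the median was 0.096, and the fifth gene called was Serpinh1, the collagen chaperone (0.32 ± 0.063, adjusted p = 0.031). Pdia4, Pdia6, Hsp90b1 and Serpinh1 were no longer called with the leptomeningeal score in the fit (adjusted p from 0.125 to 0.147, edgeR). Nor were they called by limma-voom with a correlation within consecutive library pairs (adjusted p from 0.057 to 0.263). In that order their estimates were 0.24, 0.14, 0.11 and 0.23 with the score. With the pair correlation they were 0.28, 0.16, 0.13 and 0.32. Hspa5 was still called in both fits (adjusted p = 0.025 and 0.00609). In ERAD, the list of Herpud1 and Sel1l, 11 of 33 had higher estimates and none was called (median -0.007). Nploc4, a cofactor of the p97 ATPase, had -0.11 (adjusted p = 0.123) and Ube2j1, the ubiquitin-conjugating enzyme of HRD1, had -0.086 (adjusted p = 0.333).

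Targets of ATF6 and ER chaperones also came first in r with Hspa5, from which the group means were removed. Median r was 0.47 for targets of ATF6 (13 of 13 positive, Hspa5 left out), 0.35 for ER chaperones (20 of 22), 0.29 for the ATF6 list (7 of 8), 0.22 for targets of XBP1 (26 of 33), 0.10 for the IRE1 list (8 of 11), 0.085 for targets of ATF4 (22 of 33), 0.020 for ERAD (20 of 33), -0.086 for the PERK list (6 of 16) and -0.13 for death effectors (2 of 6), beside 0.008 over all genes. Xbp1 lay at the median of the ATF6 targets, and Herpud1 and Sel1l below it. Cell type markers also went with Hspa5, with median r 0.32 for astrocytes (5 of 5 positive), 0.31 for leptomeninges (16 of 16) and 0.26 for endothelium (5 of 5). Choroid plexus markers had 0.23 (3 of 4) and hypothalamic markers 0.19 (10 of 10). The score of the hypothalamic markers had r = 0.45 with Hspa5, -0.023 with Xbp1 and -0.66 with Eif2ak3. The part of that score in the values of these genes was not tested. Medians below 0 were those of midbrain dopamine neurons (-0.27), neurons (-0.095) and erythroid cells (-0.042). Promoter letters were set beside both readouts. Of 13 tested genes with ERSE other than Hspa5, 8 had higher estimates in HFD-O and 1 was called, with a median log2 fold change of 0.039 and a median r with Hspa5 of 0.030. Of 9 with ERSE-II, Herpud1 and Hyou1 among them, 7 had higher estimates and none was called (median 0.027, median r 0.25).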

How the data were processed

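RNA-seq libraries of whole hypothalamus were prepared from 24 pups (TruSeq) and read on an Illumina HiSeq. The authors describe FastQC, Trimmomatic, mapping with Bowtie2 and edgeR, and the submitters' notes list FastQC, TopHat, edgeR and genome build rn6. How reads were counted, on which annotation and strand, and with which versions: not given in the sources used here. Per sex the authors deposited 1 table with whole-number counts per gene for 12 libraries each, the only values used. Another block of 24 per-library columns (12 per table) and the columns of the authors' own tests (fold changes, p-values) were not used. Rows in which a date stood in place of a gene name (23 and 24 rows, 0.239% and 0.237% of counts) were left out. Because strand is not stated, reads of a gene and of an overlapping antisense gene cannot be told apart.

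Groups were compared by quasi-likelihood F tests of edgeR (version 4.0.16, with limma 3.58.1 and DESeq2 1.42.0 in R 4.3.3) with TMM factors (0.981 to 1.02), filterByExpr (minimum count 10, minimum total 15) and p-values adjusted by Benjamini-Hochberg across the genes that were kept, with a threshold of 0.05. Fits were made in each sex (11388 and 11455 genes) and over both sexes with 4 group means (11630 genes). A log2 fold change above 0 is higher in HFD-O. CPM was computed with TMM-scaled totals. Correlations used log2(CPM + 1) centred within group and two-sided permutation within group (100000 draws), and single values between diets the two-sided exact permutation of 6 against 6 libraries. The fits were tested on simulated data. A cell type score is the average log2(CPM + 1) of that type's markers. Promoters, gene spans and chromosomes are from RefSeq (GRCr8). Named are the 9 genes, Hspa5, the genes of a list that were called or had the 2 smallest p-values for diet (shown here) or for the slope, and the 10 or 3 genes with highest r. Their likeness was ranked among genes of at least 10 CPM, and some of the genes so named are not reported here.

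The members, the lists and the tests were chosen with earlier results of these data known. Other settings tried were limma-voom, DESeq2, the likelihood ratio test, DESeq2 size factors, no filter, marker scores in the fit, correlation within consecutive library pairs, a pseudocount of 0.25 and leaving out each library. The log10 library total in the fit, the astrocyte and endothelial scores in the slope, the means of consecutive pairs and the pair correlation for the difference between sexes were added after the data were seen. Totals of 6116897 to 7974980 counts per library and 6 libraries per group limit the precision, and p-values take each pup as independent although some share a litter.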

Additional observations from a re-analysis of the deposited data

Results flagged for a closer look

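Of 40 groups of 6 libraries checked (9 genes and Hspa5 in 4 groups), 1 held a library far from the others. That count is no more than chance would give at the rate stated below. In male CON-O, library 3 had the lowest Atf6 level, 21.9 CPM, against 30.5 CPM in the next library and 34.3 CPM in the highest, a gap of 0.69 of the range, above the value that chance exceeds in about 1 of 20 such groups. Female CON-O library 4, the next number, also had the lowest Atf6 level of its group, 19.9 CPM. The Atf6 difference between HFD-O and CON-O was -0.091 without library 3, against -0.012 with it, in males, and was not called in either case (adjusted p = 0.931 without it, edgeR).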

How the results depend on the processing

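No member was called in any of 711 estimates under the alternatives (smallest adjusted p = 0.11), and 30 of them had the opposite sign. Diet calls over both sexes, 19 by edgeR's quasi-likelihood test, were 93 by the likelihood ratio test, 93 by DESeq2, 3 with the leptomeningeal score, 3 with the erythroid score, 133 with the log10 library total (added after the data were seen) and 1, Hspa5, with limma-voom and a correlation within consecutive pairs. They ran from 3 without library 2 to 46 without library 1, and moved by over 1.5 times also without each of libraries 3, 7, 10, 11, 12, 14, 17, 18, 19, 22 and 23. In females calls were 50 by the likelihood ratio test, 20 by DESeq2 and 0 to 10 leaving out libraries (10 without library 20). In males they were 1 by DESeq2 and 1 with the leptomeningeal score. The slope on Hspa5 gave 104 calls (86 positive) with sex in place of the 4 groups, where diet enters it. The causes were not tested.

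Signs of some estimates turned, that of Nupr1 from 1.27. With the leptomeningeal score they were -0.013 for Eif2ak3 and -0.037 for Herpud1 in females, 0.023 for Atf4, -0.10 for Ern1 and 0.014 for Eif2ak3 in males, and 0.022 for Atf4 and -0.089 for Nupr1 over both sexes. With the erythroid score they were 0.033 for Atf4 and -0.060 for Herpud1 in females, and 0.0097 for Atf4 and -0.012 for Eif2ak3 over both sexes. Leaving out libraries gave -0.052 to 0.0079 for Atf4, -0.011 to 0.12 for Ddit3, -0.024 to 0.075 for Eif2ak3 and -0.099 to 0.0054 for Sel1l in females. It gave -0.093 to 0.042 for Atf6, -0.063 to 0.033 for Eif2ak3, -0.0068 to 0.25 for Ern1 and -0.077 to 0.017 for Sel1l in males, and -0.024 to 0.031 for Eif2ak3 over both sexes.

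The correlation of Xbp1 with Hspa5 was 0.42 in males alone and -0.013 over means of consecutive pairs. That of Atf6 was -0.067 in females alone, -0.059 without libraries 6 and 10 and -0.010 centred within sex. That of Ddit3 was 0.18 without these libraries, that of Ern1 -0.13 in females alone and -0.033 centred within sex, and that of Sel1l -0.018, -0.18 and -0.086 in females alone, without these libraries and centred within sex. Hspa5 was called over both sexes under every alternative run (adjusted p up to 0.025), and leaving out libraries moved it from 0.17 to 0.18. Hsp90b1 lost its call without 15 of 24 libraries in turn, Pdia6 and Serpinh1 without 6 (libraries 2, 3, 7, 14, 17 and 18) and Pdia4 without none. With the erythroid score Pdia6, Hsp90b1 and Serpinh1 were not called (adjusted p from 0.196 to 0.202, edgeR), and their estimates were 0.14, 0.12 and 0.30. A replicate block was not fitted because the groups share no replicate numbers. A correlation within consecutive pairs, added for the difference between the sexes after the data were seen, left 0 calls by limma-voom (427 genes at an unadjusted p under 0.05), with -0.071 for Xbp1, -0.20 for Ddit3 and 0.36 for Ern1. Trib3 and Ern1 are limited by their counts.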

Other observations

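Cytosolic and secretory lists were read beside the ER lists, over both sexes. Of 12 tested cytosolic heat shock genes, which answer misfolding outside the ER, 11 had higher estimates in HFD-O and none was called (median log2 fold change 0.041, median r with Hspa5 0.061). Of these, 2 were at an unadjusted p under 0.05 by edgeR, where 12.7% of all genes were. Of 21 genes of secretory granules and neuropeptide processing, 9 had higher estimates and none was called (median -0.004), while 18 of the 21 had a positive r with Hspa5 (median 0.19, beside 0.008 over all genes). Of 12 immediate early genes, 9 had lower estimates in HFD-O and none was called (median -0.081). The slope on Hspa5 was 1.07 ± 0.45 for Pam, which amidates neuropeptides (adjusted p = 0.999), and 3.72 ± 1.57 for Pomc, the melanocortin precursor (adjusted p = 0.999), both by edgeR.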
